A study of Mus musculus with 14 samples.

Results

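The integrin chains that T cells are known to use, and the hyaluronan receptor Cd44, were followed in regulatory T cells (Tregs) sorted from tumor and spleen. The set was a fixed list of 9 genes, matched by NCBI Gene number, and all 9 were found among the 27179 genes of the count table. It holds 5 alpha chains (Itgae, Itgal, Itga4, Itga6 and Itgav), 3 beta chains (Itgb1, Itgb2 and Itgb7) and Cd44. All 9 passed the filter on low counts in each of the 6 comparisons. Polyadenylated RNA was measured in 14 libraries of cells gated on YFP, a reporter that the Cre allele of the Foxp3 locus also carries. The groups were TIL Flox (n = 3) and TIL WT (n = 4), cells infiltrating an MC38 flank tumor, and Spleen Flox (n = 3) and Spleen WT (n = 4). MC38 is a mouse colon carcinoma line. Every mouse carried such a tumor at its endpoint, on a B6 background with FoxP3Cre-YFP, so the WT mice expressed Cre as well. Flox mice carried the loxP-flanked Il23r allele, which Cre driven from Foxp3 removes only in cells that have expressed Foxp3. Neither the age and sex of the mice nor whether a library was pooled from several mice is stated in the labels.

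Integrins are cell surface receptors made of 1 alpha and 1 beta chain, and the pair decides what the cell can hold on to. The alphaE chain of Itgae (CD103) pairs with beta7 and binds E-cadherin on epithelial cells, and it marks tissue-resident T cells and many effector Tregs. The alpha4 chain pairs with beta7 for entry into the gut wall through MAdCAM-1, or with beta1 for binding to VCAM-1 and fibronectin. The alpha6 chain with beta1 binds laminin of the basement membrane. The alphaL chain pairs with beta2 to form LFA-1, the receptor for ICAM proteins used in nearly all T cell contacts. The alphaV chain takes several beta partners, binds matrix proteins with an RGD motif, and with beta8 can release active TGF-beta from its latent form. Cd44 binds hyaluronan and osteopontin and is higher on T cells that have met antigen.

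The libraries held between 4859099 and 10333892 counts, with 13657 to 15312 genes detected, and 3 counts in 1 library corresponded to 0.234 to 0.586 CPM (CPM throughout is the count scaled to the TMM-adjusted library total). Foxp3 was read at 98.2 to 231 CPM in tumor libraries and at 103 to 268 CPM in spleen libraries, and all 13 T cell and Treg identity genes were detected in every group. These 13 summed to 8705 to 12564 CPM in tumor and 3746 to 6812 CPM in spleen libraries, which do not overlap. In the tumor-to-spleen test described below, 7 of the 13 were called higher in tumor and 0 lower, against 12.3% of all genes higher. Whether the purity of the sorts or the state of the cells differed was not tested. Il23r, the deleted gene, went against the labels: it had 4, 7 and 6 counts in TIL Flox and 0, 2, 0 and 0 counts in TIL WT libraries, and 1, 0 and 9 counts in Spleen Flox and 0, 0, 2 and 0 counts in Spleen WT libraries. The labels do not say which exons were deleted, so counts over the whole gene cannot show the state of the allele, and Flox and WT below mean libraries with that label. The summed level of 4 Y-linked genes was above that of Xist in all 3 Flox libraries of each tissue. It was so in 1 of the 4 TIL WT libraries and in 0 of the 4 Spleen WT libraries. WT replicate 2 held both kinds of RNA in both tissues. TIL WT 2 had 127 CPM of Y-linked genes and 56.7 CPM of Xist. Spleen WT 2 had 37.6 CPM of Y-linked genes, the highest of its group, where Xist was at least 68.6 CPM. The origin of this mixture was not tested. Apart from these libraries the genotype label moved with the sex-linked genes, so genotype and sex cannot be told apart. Library TIL WT 1 stood apart among the tumor samples, with the lowest TMM factor (0.745), the highest summed level of CD8 and NK cell markers (508 CPM, almost all Prf1) and the lowest level of Lgals4 (0.977 CPM, against 179 to 705 CPM in the other tumor libraries).

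Between tumor and spleen, the adhesion genes did not move as a block: Itgav, Cd44 and Itgae rose in tumor Tregs, Itga4, Itga6 and Itgb1 fell, and Itgal, Itgb2 and Itgb7 did not pass the test. In a fit over all 14 libraries with the genotype label as covariate, edgeR's quasi-likelihood test with Benjamini-Hochberg adjustment called 6 of the 9 genes, 3 in each direction, at an adjusted p under 0.05. Over all genes, 2699 of 12008 were called (22.5%), 1474 of them higher in tumor (12.3%) and 1225 lower (10.2%). Tumor and spleen libraries did not overlap for 4 of the 9 genes (9.39% of all genes). The median log2 fold change was 0.14 over the 9 genes and 0.03 over all genes tested. The TMM factors were lower in the tumor libraries, and with library totals alone the median of all genes moved by -0.36, so changes are given relative to the TMM scale. In sorted bulk RNA, fewer cells of a type and less RNA per cell cannot be told apart.

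**Figure D1:**
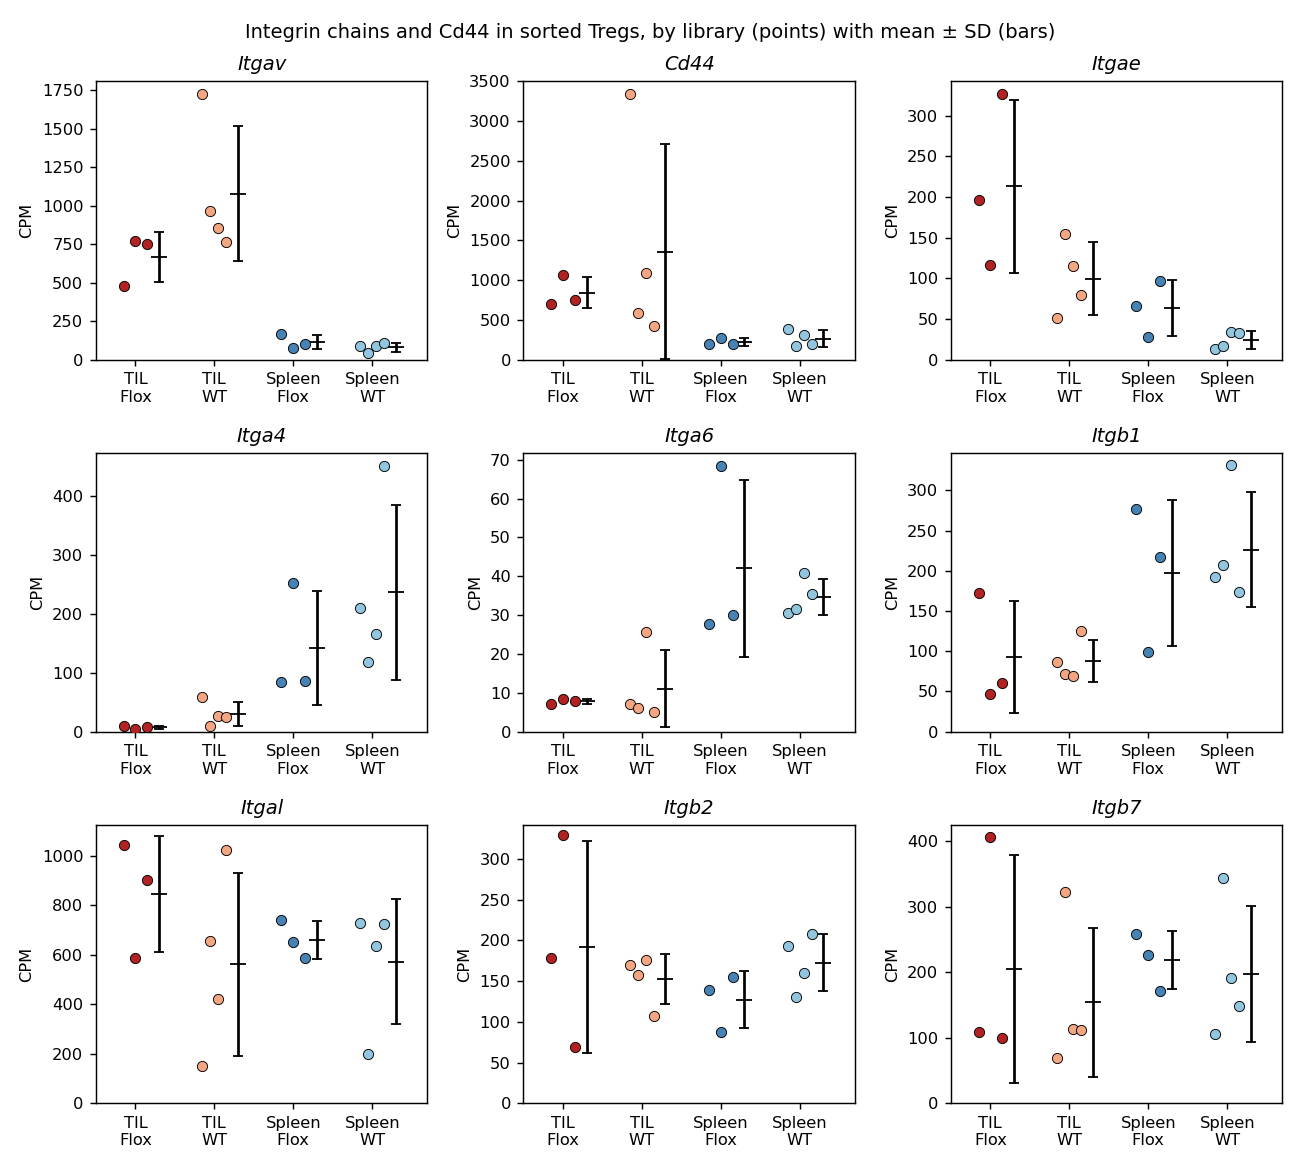
Level of each of the 9 genes in CPM (linear axes from 0), 1 point per library, for TIL Flox, TIL WT, Spleen Flox and Spleen WT, with the mean ± SD of the group beside the points. Itgav and Cd44 lay higher in all 7 tumor libraries than in any spleen library, and Itga4 and Itga6 lower, while the groups of Itgal, Itgb2 and Itgb7 overlapped.

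For 5 of the 9 genes a promoter was given in the RefSeq annotation of GRCm38.p6, and 4 are shown, for 2 genes that rose and 2 that fell in tumor. Each is the 250 bases before an annotated start, on the gene's strand, with matches to the motifs searched in capitals. For Itgav the RefSeq gene begins farther upstream, at base 83722303, so its window lies before a start inside the gene. Itgav lies on chromosome 2 (chr2:83724147-83724396, plus strand), Cd44 on chromosome 2 (chr2:102901666-102901915, minus strand), Itga4 on chromosome 2 (chr2:79255176-79255425, plus strand) and Itgb1 on chromosome 8 (chr8:128685404-128685653, plus strand).
Itgav: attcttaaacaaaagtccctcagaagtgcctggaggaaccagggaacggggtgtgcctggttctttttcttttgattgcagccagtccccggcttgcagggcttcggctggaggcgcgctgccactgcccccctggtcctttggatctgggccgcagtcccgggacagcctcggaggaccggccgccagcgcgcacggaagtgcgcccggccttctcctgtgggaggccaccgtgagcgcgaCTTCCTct
Cd44: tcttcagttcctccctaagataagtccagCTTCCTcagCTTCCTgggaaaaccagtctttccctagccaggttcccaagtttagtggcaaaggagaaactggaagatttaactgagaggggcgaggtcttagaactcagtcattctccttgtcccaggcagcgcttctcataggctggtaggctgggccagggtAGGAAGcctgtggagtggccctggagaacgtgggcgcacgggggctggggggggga
Itga4: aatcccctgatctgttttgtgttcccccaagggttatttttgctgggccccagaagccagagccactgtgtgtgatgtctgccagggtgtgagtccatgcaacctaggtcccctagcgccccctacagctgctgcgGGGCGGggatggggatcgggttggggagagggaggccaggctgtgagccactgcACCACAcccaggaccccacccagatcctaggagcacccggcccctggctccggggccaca
Itgb1: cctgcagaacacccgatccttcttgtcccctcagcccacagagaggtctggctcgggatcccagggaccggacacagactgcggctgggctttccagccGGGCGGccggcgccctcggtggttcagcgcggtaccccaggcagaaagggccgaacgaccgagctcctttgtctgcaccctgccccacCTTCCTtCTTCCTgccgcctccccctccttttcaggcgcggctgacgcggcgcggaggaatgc
The motifs, searched on both strands, were the ETS core AGGAAG, the GC box GGGCGG bound by SP and KLF factors, the RUNX core TGTGGT, AP-1 (TGANTCA), an NF-kB motif and the TATA box (TATAAA). The Itgav window holds 1 ETS match, 3 bases before the start used, and that of Cd44 holds 3, while Itga4 has 1 GC box and 1 RUNX match and Itgb1 has 1 GC box and 2 ETS matches. Of 32851 promoter windows of the same length, 29.5% hold the ETS letters, 32.7% the GC box, 14.0% the RUNX core, 6.75% AP-1, 1.41% NF-kB and 12.4% the TATA box. AP-1, NF-kB and TATA letters were found in none of the 5 windows. Their GC content was 64.4% for Itgav, 56.4% for Cd44, 64.0% for Itga4 and 68.0% for Itgb1, against a median of 52.4%.

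Itgav had the largest rise of the 9 genes. It had 483, 773 and 756 CPM in TIL Flox and 1727, 969, 859 and 764 CPM in TIL WT libraries, against 167, 78.7 and 102 CPM in Spleen Flox and 86.6, 41.5, 88.8 and 112 CPM in Spleen WT libraries. The lowest tumor library was thus above the highest spleen library. The mean was 904 ± 392 CPM in tumor and 96.7 ± 38.0 CPM in spleen (SD, n = 7 each), a log2 fold change of 3.21 ± 0.36 (SE) or 9.25-fold (edgeR adjusted p = 5.26e-05). With any library left out, the log2 fold change stayed between 2.98 and 3.39 and the call was kept.

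Cd44 followed the same direction with a wider spread. It had 705, 1065 and 757 CPM in TIL Flox and 3337, 584, 1090 and 427 CPM in TIL WT libraries, against 195, 279 and 197 CPM in Spleen Flox and 388, 169, 314 and 199 CPM in Spleen WT libraries. The tissues did not overlap, and TIL WT 1 stood far above every other library. The mean was 1138 ± 999 CPM in tumor and 249 ± 80.5 CPM in spleen (SD, n = 7 each), with a log2 fold change of 2.16 ± 0.42 or 4.47-fold (edgeR adjusted p = 0.00266). Leaving out any 1 library kept the call, with log2 fold changes of 1.64 to 2.31.

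Itgae, the alphaE chain, had 196, 116 and 327 CPM in TIL Flox and 51.0, 154, 115 and 79.4 CPM in TIL WT libraries, against 66.1, 27.5 and 96.2 CPM in Spleen Flox and 12.9, 16.9, 34.0 and 33.5 CPM in Spleen WT libraries. Tumor and spleen overlapped when both genotypes were pooled, because Spleen Flox 1 and 3 lay above TIL WT 1, and Spleen Flox 3 also above TIL WT 4. Within each genotype label the tissues did not overlap. The mean was 148 ± 91.8 CPM in tumor and 41.0 ± 29.8 CPM in spleen (SD, n = 7 each), a log2 fold change of 1.92 ± 0.42 or 3.77-fold (edgeR adjusted p = 0.00505), and the call was kept without any 1 library.

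Itga4, the alpha4 chain, had the largest fall. It had 8.67, 4.72 and 7.88 CPM in TIL Flox and 58.2, 9.58, 25.6 and 25.1 CPM in TIL WT libraries, against 83.7, 252 and 86.5 CPM in Spleen Flox and 210, 117, 166 and 450 CPM in Spleen WT libraries. No tumor library reached the lowest spleen library. The mean was 19.97 ± 18.9 CPM in tumor and 195 ± 129 CPM in spleen (SD, n = 7 each), and the log2 fold change was -3.55 ± 0.54, or 11.7-fold lower (edgeR adjusted p = 0.000522). Of its annotated exon bases, 127 (1.3%) also lie in Cerkl on the opposite strand, and the labels do not say whether counting used the strand.

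Itga6, the laminin-binding alpha6 chain, had 7.10, 8.42 and 7.77 CPM in TIL Flox and 7.23, 6.13, 25.8 and 5.03 CPM in TIL WT libraries, against 27.8, 68.4 and 29.98 CPM in Spleen Flox and 30.5, 31.5, 40.8 and 35.5 CPM in Spleen WT libraries. Of the tumor libraries, 6 lay within a narrow band and TIL WT 3 came close to the spleen range without reaching it. Its log2 fold change was -1.98 ± 0.43, or 3.96-fold lower (edgeR adjusted p = 0.00504). Itgb1, the common partner of alpha4 and alpha6, had 173, 46.4 and 60.1 CPM in TIL Flox and 86.7, 71.3, 69.1 and 125 CPM in TIL WT libraries, against 278, 98.6 and 217 CPM in Spleen Flox and 193, 207, 331 and 174 CPM in Spleen WT libraries. TIL Flox 1 and TIL WT 4 lay above Spleen Flox 2, so the tissues overlapped. The fall of Itgb1 was smaller, with a log2 fold change of -1.24 ± 0.37, or 2.36-fold lower (edgeR adjusted p = 0.0259). It was the least stable of the 6 calls: the adjusted p was 0.0548 without Spleen WT 3, 0.0531 without Spleen Flox 1 and 0.0529 without both WT replicate 2 libraries.

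The 3 genes that did not pass were those for LFA-1 and the beta7 chain. Itgal, which encodes alphaL, had 1045, 588 and 902 CPM in TIL Flox and 152, 656, 420 and 1022 CPM in TIL WT libraries, against 740, 652 and 588 CPM in Spleen Flox and 730, 199, 637 and 724 CPM in Spleen WT libraries. Its log2 fold change was 0.14, with 95% limits of -0.68 and 0.95 (edgeR adjusted p = 0.829). Itgb2, the beta2 chain, ranged from 69.7 to 329 CPM in tumor and from 87.9 to 208 CPM in spleen libraries, with a log2 fold change of 0.15 and limits of -0.59 and 0.89 (edgeR adjusted p = 0.787). Itgb7 ranged from 69.5 to 407 CPM in tumor and from 106 to 343 CPM in spleen libraries, with a log2 fold change of -0.24 and limits of -1.18 and 0.70 (edgeR adjusted p = 0.731). The sign of the Itgal and Itgb2 values turned with library totals alone, where both were -0.19. These libraries leave any change within these limits possible.

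**Figure D2:**
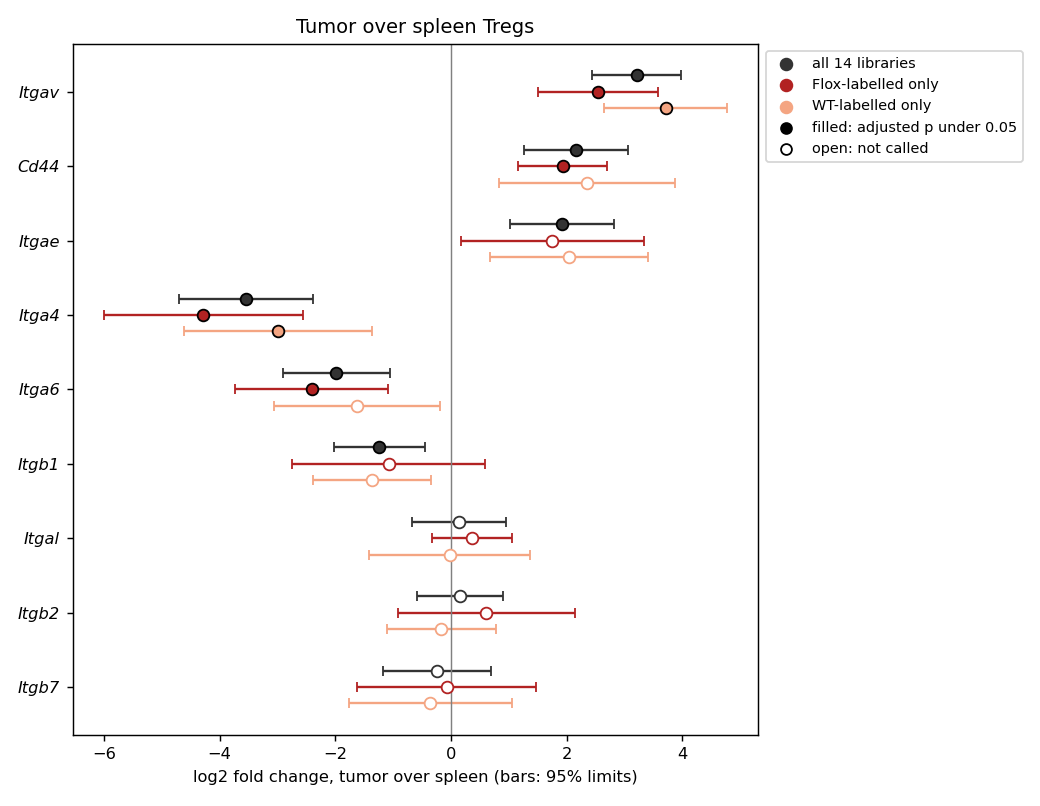
Log2 fold change of tumor over spleen for each gene, with 95% limits, over all 14 libraries and within the Flox-labelled and the WT-labelled libraries; filled points have an adjusted p under 0.05. Itgav lies highest (3.21 over all libraries), Itga4 lowest (-3.55), and the limits of Itgal, Itgb2 and Itgb7 include 0 in all 3 fits.

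Fitted apart, both genotype labels gave the same sign for the 6 called genes. Those genes were called over the same 14 libraries together, so the shared sign is no separate evidence for them. The 2 fits share no library with each other. Among Flox libraries, where 847 of 10760 genes were called (7.87%), 4 of the 9 genes were called: Itgav (2.54 ± 0.43, adjusted p = 0.0246) and Cd44 (1.93 ± 0.32, adjusted p = 0.0227) rose and Itga4 (-4.29 ± 0.72, adjusted p = 0.0235) and Itga6 (-2.41 ± 0.55, adjusted p = 0.0486) fell, as log2 fold changes ± SE by edgeR. Among WT libraries, where 750 of 10560 genes were called (7.10%), 2 were: Itgav (3.71 ± 0.47, adjusted p = 0.00523) rose and Itga4 (-3.00 ± 0.72, adjusted p = 0.0408) fell. Cd44 (2.35) and Itga6 (-1.62) did not pass in WT libraries (edgeR adjusted p = 0.0695 and 0.144). Itgae and Itgb1 passed in neither fit by edgeR, with log2 fold changes of 1.75 and -1.08 in Flox libraries (edgeR adjusted p = 0.151 and 0.360) and 2.04 and -1.37 in WT libraries (0.0754 and 0.0990). DESeq2 called Itgae in Flox libraries (adjusted p = 0.0198), and in WT libraries Itgae (0.000826), Cd44 (0.0014), Itgb1 (0.00338) and Itga6 (0.0279). With all 14 libraries in 1 fit, Itgae (adjusted p = 0.0359) and Cd44 (0.0208) also passed in WT libraries, while Cd44 did not in Flox libraries (0.0850). limma voom called Itgae in WT libraries (adjusted p = 0.0402). Tumor and spleen did not overlap for 5 of the 9 genes in Flox libraries (33.0% of all genes) and for 6 of 9 in WT libraries (18.0% of all genes).

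The calls within 1 label rest on few libraries. In the Flox fit, the calls of Itgav, Itga4 and Itga6 were lost whichever of the 6 libraries was left out (adjusted p 0.0520 to 0.121), and that of Cd44 was lost without any library but TIL Flox 2 (0.0496 without it, and up to 0.0880). The call of Itga4 in the WT fit was lost without Spleen WT 1, 3 or 4, without TIL WT 2, 3 or 4, and without both WT replicate 2 libraries (adjusted p 0.0747 to 0.0921). Itgav kept its call in the WT fit without each library, with log2 fold changes of 3.41 to 3.89. The difference of the tissue contrast between the labels was tested over all 14 libraries, and 0 of 12008 genes passed by edgeR (1296, or 10.8%, had an unadjusted p under 0.05, and DESeq2 called 135). For Itgav it was -1.18 ± 0.60 on the log2 scale (unadjusted p = 0.0700, edgeR adjusted p = 0.495).

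Markers of other cell types also differed between tumor and spleen libraries. The calls are those of the fit over all 14 libraries, where 12.3% of all genes were higher and 10.2% lower in tumor. The 11 B and plasma cell markers summed to 138 to 378 CPM in tumor and 492 to 2355 CPM in spleen libraries, and 8 of the 10 tested were lower in tumor. Of the 11, 10 passed the filter on low counts within spleen libraries and 5 within tumor libraries. Some thus entered the test through spleen, where they are high, and their count cannot be set against all genes. Itga4, Itga6 and Itgb1 are also expressed by B cells, and the part of such cells in their fall was not tested. Of the 13 fibroblast and endothelial markers, 7 could be tested and 6 of these were higher in tumor. Those 7 had a median log2 fold change of 5.51. The filter on low counts passed 7 of the 13 within tumor libraries and 1 within spleen libraries. Markers that entered the test through tumor are high there, so this count and median cannot be set against all genes. All 13 summed to 48.7 to 316 CPM in tumor and 57.4 to 165 CPM in spleen libraries, with Cldn5 at 0 throughout. The spleen sum was almost all Pecam1, with a mean of 104 CPM against 0.433 CPM for the next marker, Sparc. In tumor Pecam1 averaged 65.1 CPM and the next marker, Col3a1, 30.8 CPM. Myeloid markers summed to 32.6 to 281 CPM in tumor and 203 to 448 CPM in spleen libraries, with Apoe highest by mean in both (42.6 and 190 CPM). Of the 19 myeloid markers, 16 could be tested, and 4 were higher and 2 lower in tumor. Epithelial and MC38 carcinoma markers summed to 2.15 to 708 CPM in tumor and 304 to 774 CPM in spleen libraries, almost all of it Lgals4, with Krt19 and Cldn4 at 0. Immediate early and heat shock genes summed to 1418 to 3234 CPM in tumor and 991 to 1799 CPM in spleen libraries. The part of these in the rise of Itgav and Cd44 was not tested.

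Which chains were most abundant also differed between the tissues, on a scale of CPM per kb of annotated exon. In tumor libraries Cd44 (201 ± 177), Itgav (128 ± 55.5) and Itgal (107 ± 51.8) led, followed by Itgb7 (65.6 ± 49.1), Itgb2 (57.1 ± 27.3), Itgae (38.6 ± 23.9), Itgb1 (23.7 ± 11.6), Itga6 (2.21 ± 1.65) and Itga4 (2.04 ± 1.93), as CPM per kb ± SD over 7 libraries. In spleen libraries the order was Itgal (95.6 ± 29.8), Itgb7 (77.0 ± 29.1), Itgb1 (56.1 ± 19.5), Itgb2 (51.6 ± 13.5), Cd44 (44.0 ± 14.2), Itga4 (19.98 ± 13.2), Itgav (13.7 ± 5.39), Itgae (10.7 ± 7.76) and Itga6 (8.67 ± 3.25). Neighbours in these orders mostly exchange places from library to library: the upper gene of a pair was higher in all 7 libraries only for Itgb1 over Itga6 in tumor.

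**Figure D3:**
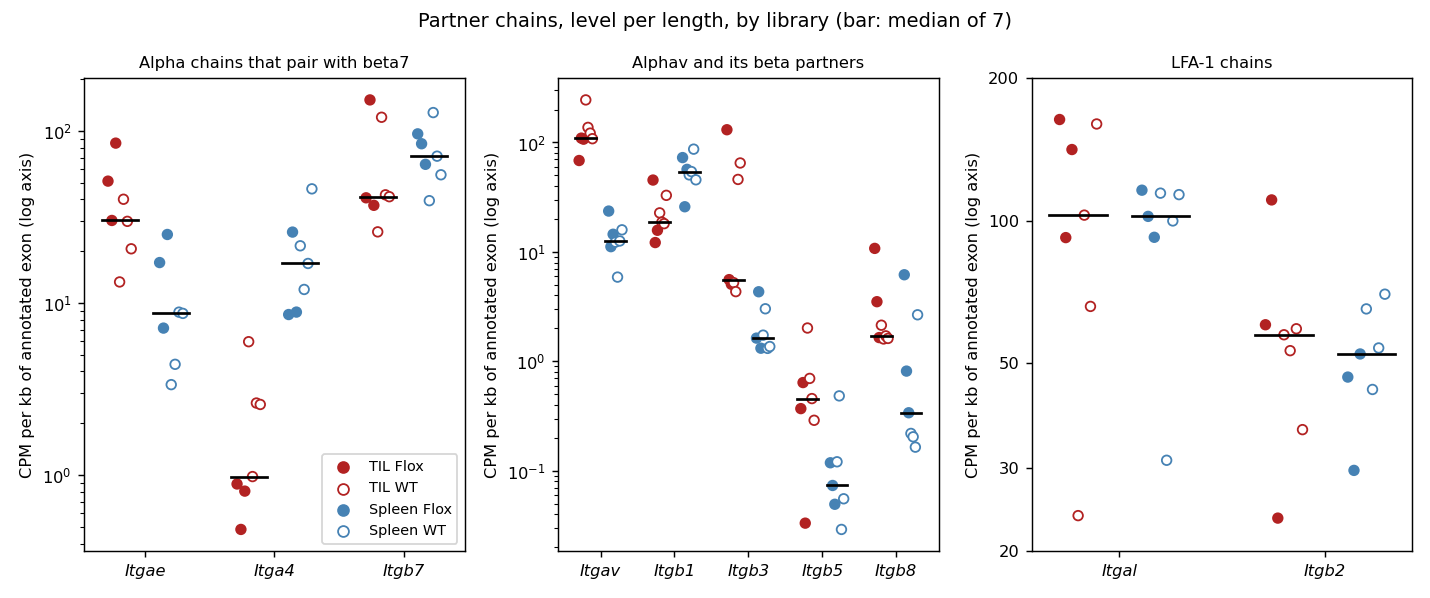
Level per kb of annotated exon (log axes) of the alpha chains that pair with beta7, of alphaV and its beta partners, and of the LFA-1 chains; red is tumor, blue spleen, filled Flox, open WT, and the bar is the median of 7 libraries. Itgae and Itga4 change places between the tissues while Itgb7 overlaps, and Itgav lies above Itgb1 in all 7 tumor libraries and below it in all 7 spleen libraries.

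The beta7 chain can pair with alphaE or with alpha4, and the transcripts of these 2 alpha chains shifted against each other. Per kb, Itgae was 57.6, 62.5 and 105 times Itga4 in TIL Flox libraries (lowest to highest) and 2.22 to 40.9 times in TIL WT libraries, against 0.277 to 2.83 times in Spleen Flox and 0.156 to 0.521 times in Spleen WT libraries. The ratio was above 1 in 7 of 7 tumor libraries and in 2 of 7 spleen libraries, both labelled Flox. For the alphaV and beta1 chains the ratio per kb was 1.51 to 10.8 in tumor and 0.109 to 0.432 in spleen libraries, above 1 in 7 of 7 and 0 of 7. Each of these ratios joins 2 genes already called in opposite directions over the same libraries, so its shift restates those calls. The ratio of Itgal to Itgb2, the 2 chains of LFA-1, ranged from 0.414 to 6.03 in tumor and from 0.708 to 3.45 in spleen libraries, which overlap. These are ratios of transcripts and do not show which pairs form on the surface.

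Among the 18 other integrin chains, which serve mostly platelets, myeloid cells and epithelia, 13 could be tested and 5 were higher and 1 lower in tumor, with a median log2 fold change of 0.64. The share called over all genes was 22.5%. Itgb3, the beta3 partner of alphaV, had 756, 32.3 and 29.3 CPM in TIL Flox and 30.3, 25.1, 266 and 376 CPM in TIL WT libraries, against 9.43, 25.0 and 7.62 CPM in Spleen Flox and 10.03, 17.5, 7.60 and 7.90 CPM in Spleen WT libraries. The lowest tumor library (25.1 CPM) was only just above the highest spleen library (25.0 CPM), and TIL Flox 1, TIL WT 3 and TIL WT 4 stood far above the other tumor libraries. Its log2 fold change was 4.13 ± 0.88 (edgeR adjusted p = 0.00457), and 3.07 without TIL Flox 1, with the call kept. Itga3, the laminin-binding alpha3 chain, had 5.66 to 272 CPM in tumor and 0.624 to 4.35 CPM in spleen libraries (log2 fold change 4.54 ± 1.13, edgeR adjusted p = 0.0110), and TIL WT 4 alone stood at 272 CPM. Without TIL WT 4 the Itga3 log2 fold change was 2.96 (edgeR adjusted p = 0.000938). Itga9 was lower in tumor, at 0 to 0.586 CPM against 0.376 to 27.1 CPM in spleen (-3.77 ± 1.00, edgeR adjusted p = 0.0152). Spleen Flox 2 alone held the 27.1 CPM, and without it the log2 fold change of Itga9 was -2.47, with the call kept.

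Calls for Itga1, Itgb5 and Itga5 were weaker. Itga1 and Itgb5 stayed under 7 CPM in all libraries, and Itga5, the fibronectin receptor chain, had 0.538 to 89.6 CPM in tumor and 0.512 to 1.88 CPM in spleen libraries. Their log2 fold changes were 2.59, 2.16 and 2.97 (edgeR adjusted p = 0.0392, 0.0408 and 0.0411). The Itga1 call was lost in 8 of 12 fits that left out libraries, the Itgb5 call in 10 of 15 and the Itga5 call in 9 of 15, with adjusted p up to 0.107. Without TIL Flox 1 the Itga5 value was 1.60, without Spleen Flox 3 the Itga1 value was 3.38, and without Spleen WT 2 the Itgb5 value was 2.82. Itgb8, the partner with which alphaV activates TGF-beta, did not pass, with 90.5, 29.5 and 13.8 CPM in TIL Flox and 17.97, 13.4, 14.4 and 13.6 CPM in TIL WT libraries, against 51.9, 6.84 and 2.85 CPM in Spleen Flox and 1.84, 1.72, 1.38 and 22.4 CPM in Spleen WT libraries (log2 fold change 1.13 ± 0.77, edgeR adjusted p = 0.319). It was chosen for mention after its values were seen.

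**Figure D4:**
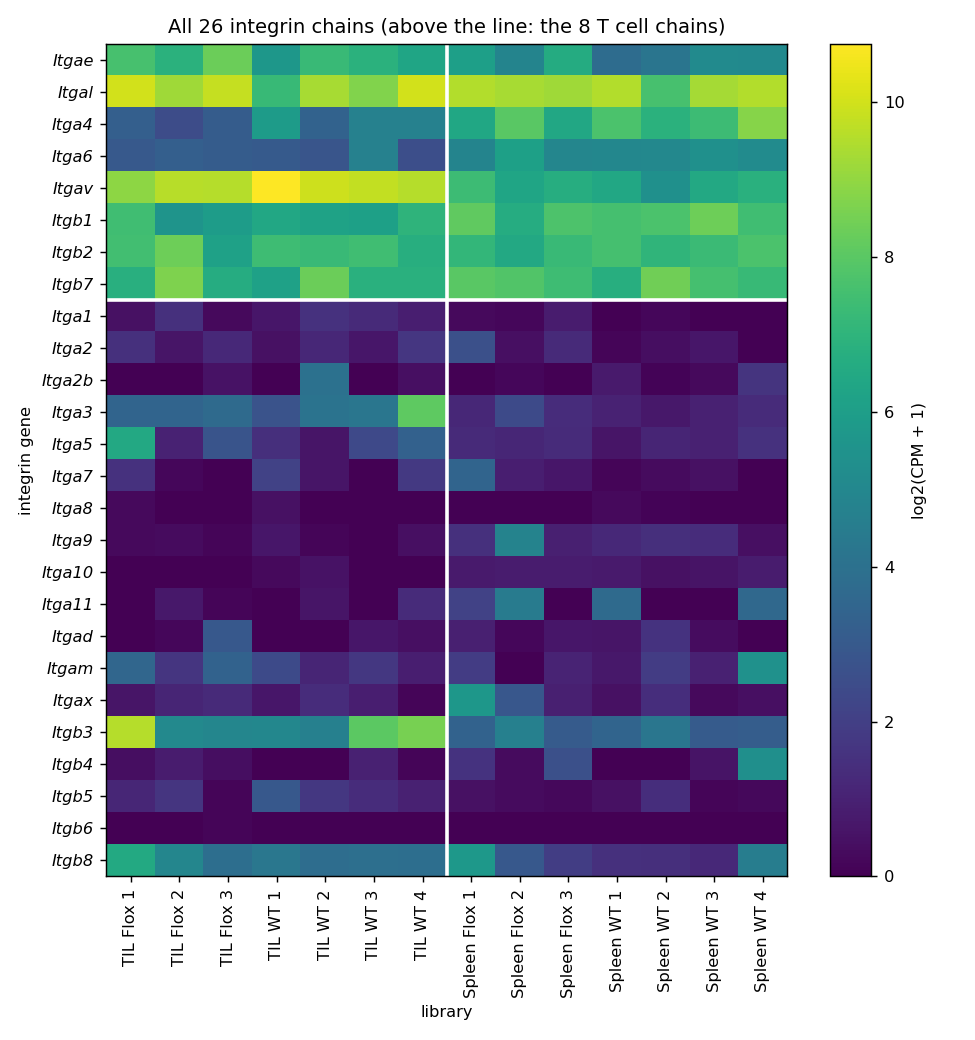
Heat map of log2(CPM + 1) for all 26 integrin chains (rows; the 8 T cell chains above the line) in the 14 libraries (columns; tumor left of the line, spleen right). Apart from Itgb3, Itgb8 and Itga3, the other chains are dark in most libraries, with single bright libraries such as Itga5 in TIL Flox 1 and Itgax in Spleen Flox 1.

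Of 34 genes that activate integrins or tie them to the cytoskeleton, 31 could be tested, and 2 were higher and 5 lower in tumor (median log2 fold change 0.31). That is near the share called over all genes (22.5%), so the list as a whole did not stand out. Rasgrp2, the calcium-driven activator of RAP1 that switches integrins on, had 0.731, 1.02 and 0.901 CPM in TIL Flox and 3.71, 1.83, 0.422 and 4.05 CPM in TIL WT libraries, against 14.8, 11.8 and 8.88 CPM in Spleen Flox and 10.9, 12.8, 14.5 and 24.8 CPM in Spleen WT libraries. The tissues did not overlap, and its log2 fold change was -3.10 ± 0.47 (edgeR adjusted p = 0.000492). Apbb1ip, which encodes RIAM, the adaptor that joins RAP1 to talin, averaged 29.8 ± 13.9 CPM in tumor and 130 ± 45.2 CPM in spleen (SD, n = 7 each; -2.11 ± 0.37, edgeR adjusted p = 0.00147). Skap1, a T cell adaptor of the same step, and Actn1, an actin crosslinker, also fell (-1.67 ± 0.32 and -1.94 ± 0.46, edgeR adjusted p = 0.00258 and 0.00837). The 2 that rose were low in most libraries: Fermt2 (kindlin-2) had 1.08 to 8.70 CPM in tumor and 0 to 0.307 CPM in spleen (edgeR adjusted p = 0.000792), and Tln2 had 0.215 to 51.0 CPM and 0 to 0.335 CPM (edgeR adjusted p = 0.0125).

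Of 20 ligands of these receptors, 12 could be tested and 7 were higher and 1 lower in tumor (median log2 fold change 3.32), where 22.5% of all genes were called. The filter on low counts passed 11 of the 20 within tumor libraries and 6 within spleen libraries. Ligands that entered the test through tumor are high there, so this count and median cannot be set against all genes. Spp1, which encodes osteopontin, a ligand of Cd44 and of alphaV integrins, had 47.8, 22.3 and 56.5 CPM in TIL Flox and 113, 10.01, 18.6 and 33.3 CPM in TIL WT libraries, and stayed at 0.234 to 0.940 CPM in all 7 spleen libraries (6.28 ± 0.65, edgeR adjusted p = 3.23e-05). Fn1, fibronectin, had 92.03, 53.6 and 186 CPM in TIL Flox and 37.7, 26.04, 55.2 and 19.0 CPM in TIL WT libraries, against 0.307 to 4.68 CPM in spleen (5.23 ± 0.73, edgeR adjusted p = 0.000293; up to 6.05 without both WT replicate 2 libraries). The laminin chains Lama5 (3.46 ± 0.41, edgeR adjusted p = 8.70e-05) and Lamc1 (3.41 ± 0.63, edgeR adjusted p = 0.00190) rose as well, as did Hbegf (3.24 ± 0.48, edgeR adjusted p = 0.000465), a growth factor carried by Cd44 variants. Icam2, a ligand of LFA-1, fell, with 1.15 to 3.10 CPM in tumor and 5.11 to 66.8 CPM in spleen (-3.94 ± 0.65, edgeR adjusted p = 0.000917; -3.35 without Spleen Flox 2). Icam1, a more abundant ligand of LFA-1, lay the other way by mean, at 178 CPM in tumor and 32.6 CPM in spleen. Its libraries overlapped, with 48.8 to 399 CPM in tumor and 10.8 to 76.2 CPM in spleen. Icam1 was chosen for mention after its values were seen. These ligands are also made by fibroblasts, endothelium and myeloid cells, whose markers are given above, and the part of such cells was not tested. Cdh1, the E-cadherin that alphaE binds, had 0 counts in 6 of 7 tumor libraries, and in spleen it was above 0 in Spleen Flox 1 alone (17.9 CPM).

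Of 33 selectins, Cd44 partners and other adhesion receptors, 29 could be tested and 3 were higher and 4 lower in tumor (median log2 fold change 0.43). This too is near the share called over all genes (22.5%). Cd96 and Cd226, receptors for nectin-family ligands, both fell: Cd96 averaged 9.35 ± 5.63 CPM in tumor and 88.7 ± 27.9 CPM in spleen (-3.23 ± 0.48, edgeR adjusted p = 0.000410), and Cd226 averaged 3.11 ± 1.17 CPM and 57.9 ± 45.2 CPM (SD, n = 7 each; -4.13 ± 0.61, edgeR adjusted p = 0.000432). Neither overlapped between the tissues. Cd2, the T cell receptor for CD48 in mice, rose, with 134 to 357 CPM in tumor and 61.3 to 126 CPM in spleen (1.23 ± 0.29, edgeR adjusted p = 0.00773). Alcam, the ligand of CD6, rose with 23.4 to 195 CPM in tumor and 5.11 to 64.8 CPM in spleen (2.21 ± 0.68, edgeR adjusted p = 0.0314), a call lost in 8 of 15 fits that left out libraries. The selectin genes Selp and Sele, at or near 0 in tumor, were lower there: Selp had 0 to 0.123 CPM in tumor and 0.670 to 12.2 CPM in spleen (edgeR adjusted p = 0.000792), and Sele 0 CPM in tumor and 0 to 2.51 CPM in spleen (edgeR adjusted p = 0.0331, lost in 4 of 14 such fits).

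For the genotype comparison the study was designed around, Flox against WT within a tissue, none of the 9 genes passed in either tissue. In tumor 0 of 10777 genes were called by edgeR (0%), 871 had an unadjusted p under 0.05 (8.08%), and DESeq2 called 256 and limma voom 1. In spleen 0 of 10935 were called (0%), 750 had an unadjusted p under 0.05 (6.86%), and DESeq2 called 124 and limma voom 0. The limits around the fitted changes were wide. Because the label and the sex-linked genes move together outside the WT replicate 2 libraries, neither contrast can be assigned to Il23r.

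Itga4 in tumor had the smallest p of the 9 genes. It had 8.67, 4.72 and 7.88 CPM in TIL Flox against 58.2, 9.58, 25.6 and 25.1 CPM in TIL WT libraries. Every Flox library lay below every WT library, although TIL WT 2 was close to TIL Flox 1, and groups that do not overlap in this direction occurred for 2.53% of all genes. The mean was 7.09 ± 2.09 CPM in TIL Flox (SD, n = 3) and 29.6 ± 20.5 CPM in TIL WT (SD, n = 4), a log2 fold change of -2.06 ± 0.69 (unadjusted p = 0.0180, edgeR adjusted p = 0.584). DESeq2 gave -2.09 with an adjusted p of 0.0411, the lowest over the alternatives, whose adjusted p reached 0.999, and without TIL WT 1 edgeR gave -1.52. In spleen Itga4 was fitted in the same direction, with 141 ± 96.6 CPM in Spleen Flox and 236 ± 148 CPM in Spleen WT libraries (log2 fold change -0.75 ± 0.60, edgeR adjusted p = 0.788). The difference between these contrasts was -1.32 ± 0.95 (edgeR adjusted p = 0.638).

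Itgae was fitted higher in Flox libraries of both tissues and passed in neither. In tumor it averaged 213 ± 106 CPM in Flox (n = 3) and 99.8 ± 44.6 CPM in WT libraries (SD, n = 4), a log2 fold change of 1.06 ± 0.63 (edgeR adjusted p = 0.623). In spleen it averaged 63.3 CPM in Flox and 24.3 CPM in WT libraries, which ranged from 12.9 to 34.0 CPM, a log2 fold change of 1.38 ± 0.60 (unadjusted p = 0.0509, edgeR adjusted p = 0.674). No member's groups were apart in spleen (5.88% of all genes were). The groups of Itgae overlapped in both tissues, with TIL Flox 2 below TIL WT 2 and Spleen Flox 2 below Spleen WT 3 and 4. The 2 contrasts share no library, and their difference was -0.28 ± 0.84 (edgeR adjusted p = 0.942).

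Itgav was fitted in opposite directions in the tissues, at 670.4 ± 163 CPM in TIL Flox and 1079 ± 439.9 CPM in TIL WT libraries (log2 fold change -0.69 ± 0.41, edgeR adjusted p = 0.625), and at 116 ± 45.5 CPM in Spleen Flox and 82.3 ± 29.6 CPM in Spleen WT libraries (0.50 ± 0.47, edgeR adjusted p = 0.824). Cd44 averaged 842 ± 195 CPM in TIL Flox and 1360.5 ± 1348 CPM in TIL WT libraries (-0.69 ± 0.72, edgeR adjusted p = 0.799). That sign rested on TIL WT 1: without it the log2 fold change of Cd44 was 0.24. For Itga6 the value was -0.55 ± 0.67 in tumor, and 0.36 without TIL WT 3. In spleen, Cd44 and Itga6 had log2 fold changes of -0.25 and 0.28 (edgeR adjusted p = 0.893 and 0.916). The 4 other genes had log2 fold changes between 0.08 and 0.58 in tumor and between -0.44 and 0.21 in spleen, with all limits including 0.

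**Figure D5:**
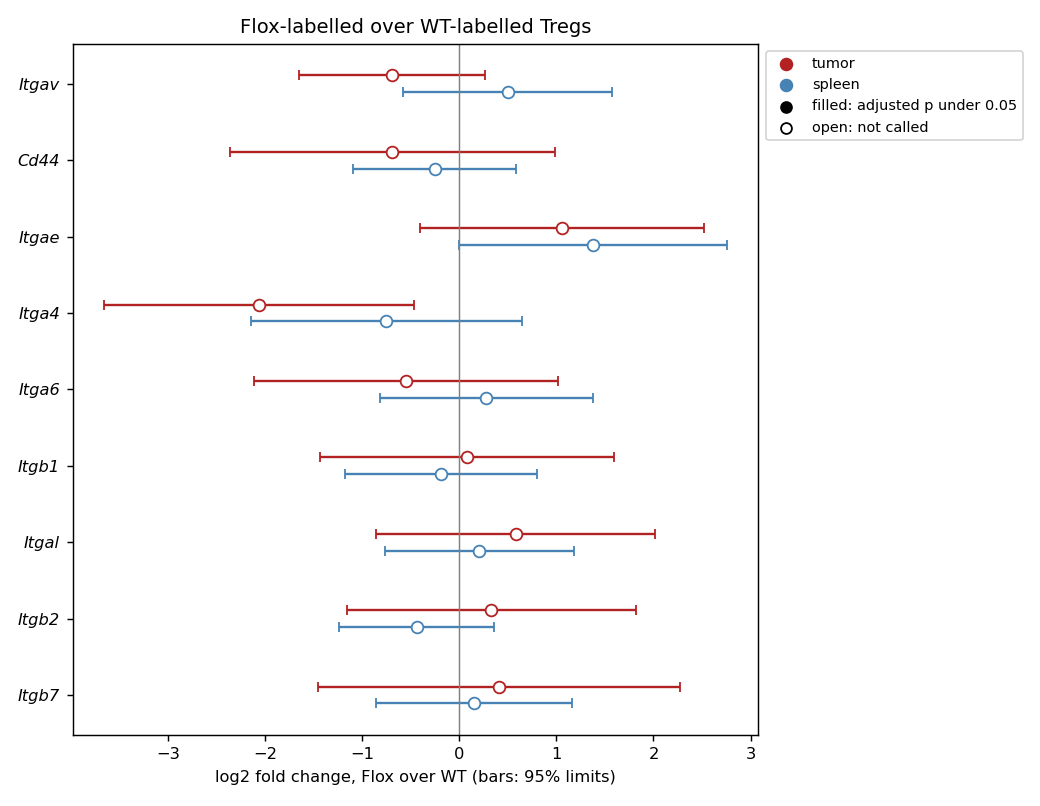
Log2 fold change of Flox over WT libraries for each gene with 95% limits, in tumor (red) and spleen (blue); all points are open, since none of the 9 genes had an adjusted p under 0.05. The limits include 0 for each gene and tissue except Itga4 in tumor (-3.66 to -0.47).

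By edgeR, none of the 4 groups of related adhesion genes held a called gene in the genotype comparisons. Of the genes named here, DESeq2 called Hmmr (adjusted p = 0.0104) and Thbs1 (0.0101) in tumor, Itgax (0.0150) in spleen and Thbs1 (0.0155) for the difference. The 2 genes with the smallest p in each by edgeR did not pass that test: in tumor these were Itgam and Itgb8, Mob1a and Fermt3, Thbs1 and Fn1, and Hmmr and Adam10, and in spleen Itgax and Itga9, Parvg and Fyb, Lamc1 and Tnc, and Hmmr and Selp. Hmmr, a hyaluronan receptor like Cd44 and a gene of dividing cells, was among them in both tissues. It had 8.77, 30.2 and 9.12 CPM in TIL Flox against 3.13, 2.80, 3.66 and 4.66 CPM in TIL WT libraries, and 3.81, 10.3 and 6.28 CPM in Spleen Flox against 2.35, 1.56, 1.38 and 2.82 CPM in Spleen WT libraries. The groups overlapped in neither tissue, as for 2.47% of all genes in tumor and 2.75% in spleen in this direction (log2 fold changes 2.17 ± 0.56 and 1.75 ± 0.48, unadjusted p = 0.00504 and 0.00717, edgeR adjusted p = 0.584 and 0.674), and DESeq2 called the tumor value alone. In the test of the difference the smallest p of these genes was that of Thbs1, thrombospondin, which had 131, 2.55 and 115 CPM in TIL Flox against 4.49, 10.01, 2.67 and 1.72 CPM in TIL WT libraries (difference of log2 fold changes 6.66 ± 1.89, unadjusted p = 0.00364, edgeR adjusted p = 0.425, DESeq2 adjusted p = 0.0155). The others named by that test, Itgax, Itga3, Fermt3, Rassf5, Fn1, Adam10 and Cd53, had edgeR adjusted p of 0.425 or more.

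Across the 14 libraries, the genes whose log2(CPM + 1) followed each member most closely are given as a description, among 6473 genes of sufficient level, all points sharing the tissue difference. Itgav was followed by Icos (Pearson r = 0.980), a costimulatory receptor of effector Tregs, and Dgat1 (0.979), and Cd44 by Hsp90b1 (0.972) and Rap2b (0.932). Itgae was nearest to Dusp8 (0.891) and Top2a (0.880), the topoisomerase of dividing cells. Among the genes that fell, Itga4 was nearest to Tab1 (0.946) and Uggt1 (0.939), Itga6 to Polr1b (0.946) and Sidt1 (0.941), and Itgb1 to Zfp518a (0.904) and Pde2a (0.888). For Itgal these were Cd99l2 (0.923) and Cep57l1 (0.910) and for Itgb7 Mon2 (0.925) and Papolg (0.882). Itgb2 had the weakest neighbours, Sos2 (0.787) and Cd3e (0.770).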

How the data were processed

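The deposited values are raw counts for each NCBI Gene number in 14 libraries, in 1 table from the authors. Per the labels' protocols, RNA of sorted cells was prepared by the Qiagen RNEasy Plus micro procedure and sequenced as ultra-low input polyadenylated RNA, and the submitters' processing notes name the mm10 build. No label or header names the aligner, the counting tool or the use of strand. The 14 libraries held 4859099 to 10333892 counts, and 3 counts are printed as the floor, which covers counting error only. Whether replicates, or tumor and spleen libraries of the same number, come from separate mice is not stated, so p-values measure the spread between these libraries.

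Of 27179 genes, 25275 were matched to a symbol. Counts were tested with edgeR 4.0.16 in R 4.3.3 (TMM scaling, filterByExpr by group, quasi-likelihood F test, Benjamini-Hochberg adjustment over all genes tested, threshold 0.05), with Flox against WT within each tissue, tumor against spleen within each label and over all libraries, and the difference of the contrasts. CPM are counts over the TMM-adjusted library total, the SE is the log2 fold change over the square root of F, and likeness used log2(CPM + 1) of genes with a mean of at least 3. Alternatives were DESeq2 1.42.0, limma 3.58.1 voom with quality weights, other scalings and filters, a replicate block, 1 fit of all libraries and leaving out libraries. Library totals without TMM factors were added after seeing the data. The test was also run on simulated counts with set changes, and the share it recovered is not given here. Figures were drawn with Python 3.11.15 and matplotlib 3.10.9.

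The members and lists were chosen with earlier results of these data known. All 9 members are named in each comparison, and from each of the 4 lists of related genes up to 6 that passed, by smallest p, or otherwise the 2 with the smallest unadjusted p. Each member's 2 closest genes are named, and cell type lists are given by counts and sums.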

Additional observations from a re-analysis of the deposited data

Results flagged for a closer look

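Among the 9 genes, 1 of 18 groups of libraries held a value that stood apart from its group, and among the related genes named in the report 15 of 74 did. The rule flags about 1 in 20 groups only where values are normally distributed. CPM cannot fall below 0 and need not be so distributed, and the related genes were chosen by their p. No excess over chance can therefore be read from these counts. Itga6 in TIL WT 3 was 25.8 CPM, against 5.03 to 7.23 CPM in the other TIL WT libraries. Without that library the tumor-to-spleen log2 fold change of Itga6 within WT libraries was -2.51 (edgeR adjusted p = 0.0299).

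Single TIL WT libraries stood apart for 7 related genes. These were Tln2 in TIL WT 1 (51.0 CPM), Skap1 in TIL WT 2 (47.8 CPM), Parvg (68.3 CPM) and Icam2 (3.10 CPM) in TIL WT 3, and Itga3 (272 CPM), Alcam (135 CPM) and Selp (0.123 CPM) in TIL WT 4. In Spleen WT libraries there were 8: Thbs1 in replicate 1 (7.06 CPM), Itga1 (0.156 CPM) and Itgax (1.64 CPM) in replicate 2, Sele (1.68 CPM) and Cd226 (104 CPM) in replicate 3, and Itgam (42.9 CPM), Itgb8 (22.4 CPM) and Tnc (44.4 CPM) in replicate 4. Each was the highest of its group. The values of Itga1, Selp and Sele rest on a few counts. Groups of 3 libraries were not examined in this way.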

How the results depend on the processing

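Over all libraries, the tumor-to-spleen values of the 9 genes kept direction and side of the threshold in 189 of 198 refits, 3 lost the call (all Itgb1) and 6 turned sign, all of Itgal or Itgb2 (-0.19 each with library totals; leaving out libraries gave -0.083 to 0.33 and -0.14 to 0.27). DESeq2 called 256 genes for Flox against WT in tumor, 124 in spleen and 135 for the difference, and for tumor against spleen 2910 in Flox and 2430 in WT libraries. limma voom called 1 gene in tumor, and in spleen the stricter filter called 1 and the fit of all libraries 4. For tumor against spleen, no filter called 457 genes in Flox libraries, and the fit of all libraries 1514 in WT libraries. Leaving out libraries gave 0 to 472 genes in Flox libraries, 373 to 658 in WT libraries (329 without both replicate 2 libraries), 0 to 1 in the spleen genotype comparison and 0 to 1 for the difference; the cause was not tested.

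With the replicate number as a block, 0 genes were called in each genotype comparison and for the difference, 2050 for tumor against spleen over all libraries, 1 in Flox and 173 in WT libraries. Same-numbered libraries had deviations correlated at -0.0493 to 0.0656, none over 0.1, and the main fits did not pair them. Such correlations compare different tissues or labels, so they cannot show that the libraries come from separate mice. WT replicate 2 held both Y-linked and Xist RNA in both tissues. The labels do not say whether same-numbered libraries share a mouse, and if they do, the fits without a block leave out that pairing. Among the genes the report names for tumor against spleen over all libraries, the block ended the calls of Itgb3 (2.95, adjusted p = 0.0712), Itga1, Itga5, Alcam and Sele, and among the 9 genes those of Itgav, Cd44, Itga4 and Itga6 in Flox libraries and of Itga4 in WT libraries.

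Genotype values near 0 turned sign. In tumor, limma voom gave -0.11 for Itgb1 and 0.051 for Cd44, and the block -0.082 for Itgb2. Leaving out libraries gave -0.78 to 0.36 for Itga6, -0.73 to 0.38 for Itgb1, -0.33 to 0.75 for Itgb2, -0.60 to 1.06 for Itgb7 and -0.98 to 0.24 for Cd44. In spleen it gave -0.10 to 0.35 for Itgal, -0.25 to 0.50 for Itga6, -0.52 to 0.14 for Itgb1, -0.10 to 0.54 for Itgb7 and -0.79 to 2.15 for Selp. For the difference it gave -0.73 to 0.11 for Itgae, -1.04 to 0.062 for Itga6, -0.53 to 0.60 for Itgb1, -0.72 to 0.91 for Itgb7, -0.74 to 0.52 for Cd44 and -0.057 to 3.95 for Adam10, and limma voom gave -0.18 for Itgb7 and 0.36 for Cd44. For tumor against spleen in WT libraries, Itgal was 0.0046 with RLE factors, 0.0047 with DESeq2 and 0.0498 with voom, and -0.46 to 0.31 without single libraries, where Itgb7 was -0.98 to 0.053. In Flox libraries Itgb7 was -1.03 to 0.29.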
